A study of Oncorhynchus mykiss with 69 samples.

Results

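Cell division and DNA replication genes were followed in 3 rainbow trout cell lines exposed to methylmercury or fluoxetine. The set took every gene whose symbol starts with a family name of the division machinery, leaving out plk3. The names were cdc, cdk, the cyclins A to J, bub, mcm, cenp, kif, aurk, plk, rfc, the polymerases alpha, delta and epsilon, orc, rad, fanc, brca, ncap and smc. This gave 126 members of the 35945 genes listed in the 6 deposited fold-change tables. The symbol alone decided for every gene but plk3, which matches the pattern, was higher in all 3 lines under methylmercury and was left out by name, and the naming pattern was chosen with earlier results of these data known. Of these, 117 were in at least 1 methylmercury table and 60 in all 3 of them, while 86 were in at least 1 fluoxetine table and 25 in all 3. Because symbols decided, the set also held cdc42 effectors and transport kinesins, which act in the cytoskeleton. Only 21.7% to 23.8% of the genes in a table had a symbol, and division genes known only by a locus number were not included.

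RNA was sequenced after 24 h of exposure of each line, 69 libraries in all. Methylmercury, an organic mercury compound that binds thiols, was given at 5 concentrations with 2 libraries each, beside 2 control libraries per line. Fluoxetine, an antidepressant that blocks serotonin uptake, was given at 1.6, 4, 8, 20, 40, 100, 200, 500 and 1000 ppb with 1 library each, beside 2 controls per line, named ctrl and H2O. The lines were RTGill-W1 from gill (passages 61 to 66), RTL-W1 from liver (passages 78 to 84) and RTgutCC, as the labels spell it, from intestinal epithelium (passages 57 to 62). All groups shared the same L-15 medium with serum and antibiotics, and all are continuous lines. Methylmercury concentrations are given as in the deposited tables, 0.25, 2.5, 25, 125 and 250. The sample titles give 0.001, 0.01, 0.1, 0.5 and 1 for the same steps, a factor of 250 smaller, and neither source states a unit. The labels do not say whether libraries of a group came from separate cultures, so p-values measure the spread between these libraries, which may be technical.

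A dividing cell loads the replicative helicase onto origins with the origin recognition complex, Cdc6 and the Mcm proteins, and then copies its DNA with the polymerases alpha, delta and epsilon and the clamp loader Rfc. Cyclins and their kinases drive each step. Condensin and cohesin shape and hold the chromosomes, the centromere proteins attach them to the spindle, and the checkpoint kinases of the Bub family hold the cell until every chromosome is attached.

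Estimated depth in the tabulated genes was 7743000 to 11505000 reads per methylmercury library, as 1 value for each pair, and 1826000 to 7669000 reads per fluoxetine library. The deposited methylmercury values give the mean of each pair and not the single libraries, so a level below is 1 value per pair, in RPM, the reads of a gene scaled to a fixed total over the tabulated genes. RPM is not divided by gene length and is compared within a gene only. It is also not the deposited scale, so a change in RPM can differ in size from the fold change without subtraction. On the deposited scale the median gene stood at -0.89 log2 units in gill, -0.78 in liver and -1.01 in gut at 250, and at -0.46, -0.43 and -0.56 at 125. Fold changes are therefore given in log2 units against the control minus the median gene of the same line and concentration, unless called deposited. Errors of fold changes are SEs from the limma variance recovered from the deposited statistics (n = 2 libraries per group). In RNA from whole cultures, fewer dividing cells and less RNA per cell cannot be told apart. Of the epithelial markers, krt18b was the only one in the gut table, with 0.543 RPM at 250 and 0.414 RPM in controls. In the liver line krt18b had 1546 RPM at 250 and 3630 RPM in controls, and no row carried the symbols epcam or cdh1.

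At the highest methylmercury concentration, genes of origin licensing, DNA synthesis, chromosome structure, spindle and repair were lower in the gut line, and fewer of them in the gill and liver lines. At 250, 58 of 84 gut members were lower against the median gene and 5 lay above it, at an adjusted p under 0.05. Over all genes of the gut table, 25.9% were lower and 21.9% higher. In gill 33 of 92 members were lower and 7 higher, where 19.6% of all genes were lower and 17% higher. In liver 21 of 89 members were lower and 3 higher, where 13.3% of all genes were lower and 15.7% higher. The gill and liver counts depend on the scaling. Without subtraction of the median gene 73 gill members were lower and 5 higher, and 69 liver members were lower and 1 higher. With the median of the more expressed genes subtracted instead, 19 gill members were lower and 11 higher, and 17 liver members were lower and 3 higher. In gut 73 were lower and 4 higher without subtraction, and 50 lower and 8 higher with the more expressed genes. No share of all genes is given for these other scalings. Without subtraction the median gene itself lay at -0.89 in gill, -0.78 in liver and -1.01 in gut, so those counts include its fall. The members' median stood at -0.90 in gut, -0.27 in gill and -0.28 in liver, against 0 for all genes by construction.

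Most members lay above the median of mean expression, and genes above it were lower at 250 than the rest. Among genes above the median of mean expression, 79.4% of 68 members were lower in gut, against 41.9% of all genes there. The same shares were 43.4% of 76 members against 32.6% in gill, and 26.8% of 71 members against 19.6% in liver. The median of those members was -0.91 in gut, -0.33 in gill and -0.34 in liver, against -0.26, -0.19 and -0.10 for all genes there.

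Relative to the median gene, the fall came late in the concentration series, and in gut almost all of it lay between the highest concentrations. In RPM, without subtraction of the median gene, orc5 and bub1 in gut were lower at 125 already, as given below. No member passed at 0.25, 2.5 or 25 in any line (limma variance, adjusted p). Of all genes, 0.0221%, 0.0354% and 0.372% passed at these steps in gill, 0.0345%, 0.0431% and 0.069% in liver, and 0.0549%, 0.0503% and 0.988% in gut. At 125 the counts were 7 lower and 5 higher in gill, 0 lower and 2 higher in liver, and 6 lower and 4 higher in gut. Over all genes at 125, 6.22% were lower and 10.2% higher in gill, 2.35% and 8.42% in liver, and 7.24% and 8.86% in gut. The gut members' median was -0.02 at 125, and it was -0.90 at 250. Set directly against 125, 54 gut members were lower at 250 and 5 higher, where 19.2% of all genes were lower and 14.6% higher. The same step lowered 18 and raised 3 members in gill, where 7.16% of all genes were lower and 7% higher. In liver it lowered 4 and raised 1, against 1.73% lower and 3.31% higher among all genes. These direct comparisons of 250 with 125 were added after the values were seen.

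**Figure D1:**
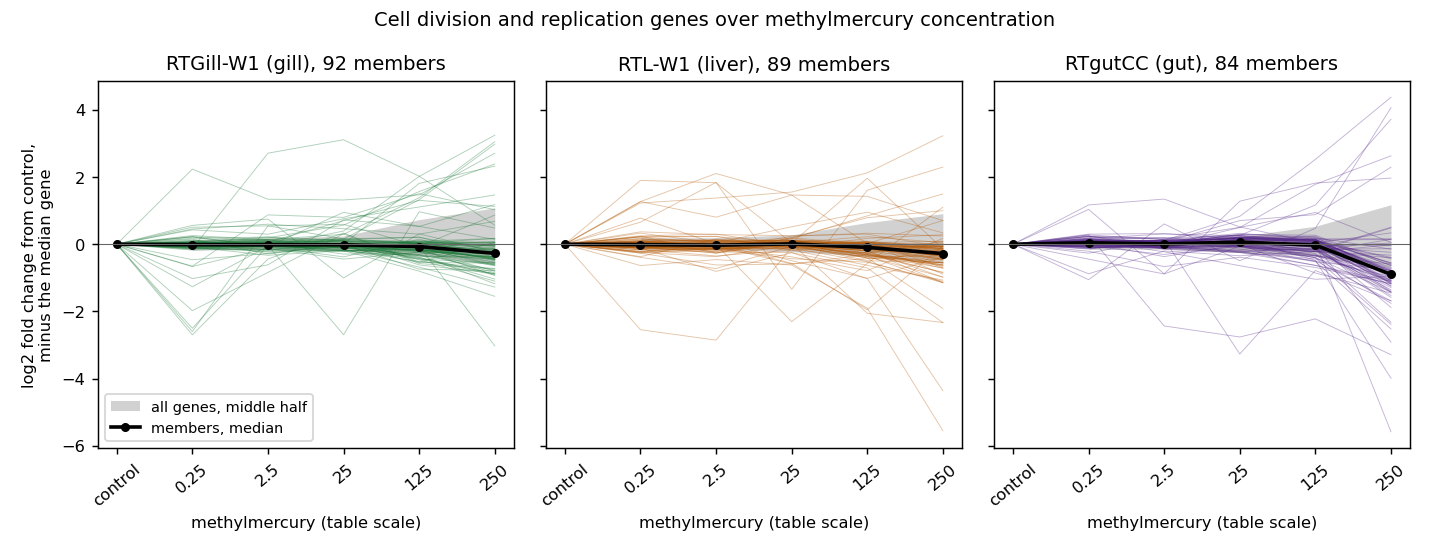
Log2 fold change of each member against control minus the median gene (vertical axis), by methylmercury concentration on the table scale (horizontal axis), 1 thin line per member, with the members' median in black and the interquartile range of all genes in grey. The median stays near 0 up to 125 in gut and reaches -0.90 at 250, against -0.27 in gill and -0.28 in liver.

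The authors' own F-test over all concentrations asks whether a gene changed anywhere in the series, on the deposited scale. That test called 76 of 92 gill members, where 56.8% of all genes passed. It called 65 of 89 liver members, against 45.8% of all genes, and 75 of 84 gut members, against 63.4%. As deposited, 4 of the changed members were higher and 72 lower at 250 in gill, 1 higher and 64 lower in liver, and 4 higher and 71 lower in gut. Relative to the median gene the same members split into 12 higher and 64 lower, 3 and 62, and 10 and 65. When the median gene was subtracted at every step before the F-test, 28 gill members passed beside 27.8% of all genes. In liver 12 passed beside 19.1%, and in gut 60 beside 40.5%. Of these members 22, 10 and 55 were lower at 250.

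Origin licensing genes fell most widely in gut. There 9 of 10 measured members of the licensing and helicase group were lower at 250, against 6 of 14 in gill and 1 of 9 in liver, with medians of -0.93, -0.29 and -0.13, and none was higher past the test. Of all genes at 250, 25.9% were lower and 21.9% higher in gut, and these shares apply to the role counts below too. They were 19.6% and 17% in gill, and 13.3% and 15.7% in liver. Role counts near these shares do not set the members apart from all genes. Orc5, a subunit of the origin recognition complex, was lower in all 3 lines. Its level in gill was 77.4 RPM in controls and 78.3, 74.5, 62.9, 29.1 and 11.9 RPM at 0.25, 2.5, 25, 125 and 250. In liver it was 43.1 RPM in controls, then 44.8, 45.7, 44.4, 27.6 and 10.6 RPM. In gut it was 55.5 RPM in controls, then 54.0, 53.9, 52.6, 28.4 and 4.36 RPM. Up to 2.5 the levels stayed close to the control in each line, and both top concentrations lay below every other one. Relative to the median gene orc5 fell by 1.55 ± 0.11 in gill (adjusted p = 4.45e-05), by 1.14 ± 0.14 in liver (adjusted p = 0.000955) and by 2.39 ± 0.17 in gut (adjusted p = 3.8e-05).

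Orc3, of the same complex, fell further in gut than in either other line. It fell by 1.36 ± 0.11 in gut and by 0.38 ± 0.09 in gill, and its value in liver was -0.01 ± 0.11 (adjusted p = 5.83e-05, 0.0158 and 0.97). The difference between gill and liver, -0.37 ± 0.14, did not pass (adjusted p = 0.106). Cdc45, which joins the Mcm ring to make the working helicase, had 12.1 RPM at 250 and 78.1 RPM in controls in gut, a fall of 1.42 ± 0.12 (adjusted p = 9.58e-05). Its values in gill and liver were -0.14 ± 0.12 and -0.20 ± 0.13. In gut, mcm9 fell by 1.14 ± 0.15, cdc6, the loading factor, by 0.97 ± 0.12, and mcm10 by 0.89 ± 0.20. In gill, orc1 fell by 0.91 ± 0.09, mcm5 by 0.88 ± 0.11 and mcm7 by 0.55 ± 0.10, and these genes had no row in the liver and gut tables.

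All 6 measured polymerase and clamp loader genes were lower in gut, against 3 of 9 in gill and 2 of 6 in liver, with none higher. The medians were -1.16, -0.30 and -0.33. Pola2, a subunit of the primase complex that starts each strand, had 51.9 RPM at 250 in gut, against 335 RPM in controls. Its levels in gill were 63.6 RPM at 250 and 240 RPM in controls, and in liver 54.4 and 139 RPM. It fell by 1.42 ± 0.15 in gut, 0.78 ± 0.12 in gill and 0.48 ± 0.13 in liver (adjusted p = 0.000217, 0.00231 and 0.0265). Pold2, a subunit of the lagging strand polymerase, fell by 1.40 ± 0.14, 0.89 ± 0.09 and 0.57 ± 0.11 in the same order (adjusted p = 0.000181, 0.000199 and 0.00698). The clamp loader genes rfc2 and rfc5 fell by 1.05 ± 0.10 and 1.18 ± 0.18 in gut, while both missed the threshold in gill (adjusted p = 0.0643 and 0.0516) and in liver (0.374 and 0.502).

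Of the spindle checkpoint and mitotic kinases, all 3 in gut were lower, 1 of 2 in gill and 1 of 3 in liver, with none higher. Bub1, the kinase that recruits the spindle checkpoint to unattached centromeres, fell in all 3 lines. In gill it had 35.8 RPM in controls and 33.3, 31.9, 32.6, 21.8 and 10.5 RPM at the rising concentrations. In liver it had 14.2 RPM in controls, then 16.9, 17.6, 13.1, 7.82 and 2.02 RPM. In gut it had 39.9 RPM in controls, then 37.7, 36.9, 34.1, 19.0 and 2.83 RPM. Up to 25 no difference from the control passed the test, and the lowest level in each line was at 250. Relative to the median gene bub1 fell by 0.62 ± 0.09 in gill (adjusted p = 0.00197), 1.91 ± 0.45 in liver (adjusted p = 0.0177) and 2.52 ± 0.22 in gut (adjusted p = 8.79e-05). At 125 its values were -0.10, -0.41 and -0.51, and none passed. Its relative bub1bb, a BubR1-type checkpoint protein, fell in gut by 0.73 ± 0.16 (adjusted p = 0.00868), with -0.13 ± 0.09 in gill and -0.13 ± 0.11 in liver. Plk4, the kinase that starts centriole copying, fell by 1.17 ± 0.14 in gut (adjusted p = 0.000475), and its value in liver was -0.07 ± 0.16.

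Cdk14, a kinase that pairs with the membrane cyclin Y, went in opposite directions in gill and gut. In gill it had 7.26 RPM in controls and 9.77, 8.95, 11.4, 10.3 and 9.11 RPM at the rising concentrations. In liver it had 8.76 RPM in controls, then 9.43, 8.49, 5.49, 5.14 and 3.21 RPM. In gut it had 6.94 RPM in controls, then 7.05, 7.11, 6.41 and 4.88 RPM, and 0 counts at 250. The gill level was above its control at every concentration, while the gut level at 250 was below the floor of 3 counts per library. Relative to the median gene cdk14 was higher by 1.47 ± 0.40 in gill (adjusted p = 0.0249). Without subtraction of the median gene that difference was 0.57 and did not pass (adjusted p = 0.255). In gut its fold change was at or below -2.78 log2 units, computed with 3 counts per library at 250. The fitted value passed the test (adjusted p = 5.64e-07), and its size depends on the offset. Single fluoxetine libraries with 0 counts of a member beside usual levels in other libraries are given below. Whether the 0 counts of cdk14 have a like origin was not tested. The value in liver was -0.56 ± 0.27 (adjusted p = 0.169).

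**Figure D2:**
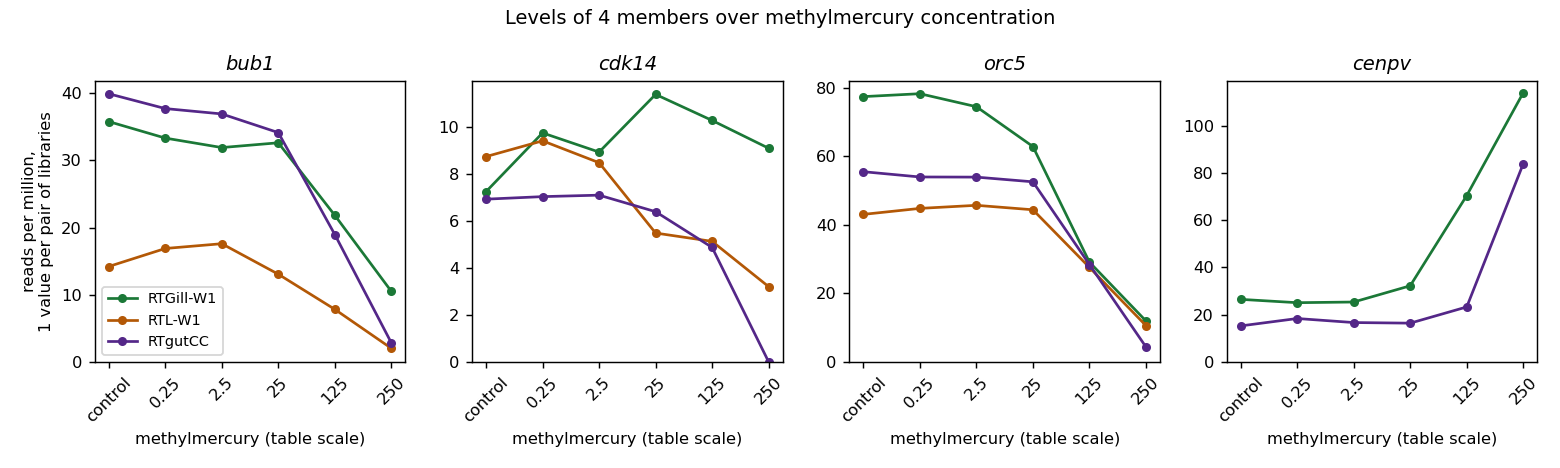
Levels of bub1, cdk14, orc5 and cenpv in RPM (vertical axes, from 0), 1 value per pair of libraries, by methylmercury concentration on the table scale (horizontal axes), 1 line per cell line. The bub1 and orc5 levels are lowest at 250 in every line, cdk14 reaches 0 in RTgutCC and 9.11 RPM in RTGill-W1 at 250, and cenpv, which had no row in the RTL-W1 table, reaches 114 and 83.9 RPM.

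The cyclin-dependent kinases, cdk14 included, did not move as 1 group. In gut 4 of 9 were lower and 2 higher, in gill 1 of 10 lower and 2 higher, and in liver 1 of 9 lower and 1 higher. Cdk2, the kinase of entry into DNA synthesis, fell by 0.83 ± 0.10 in gut (adjusted p = 0.000416), and its values were -0.23 ± 0.09 in gill and -0.31 ± 0.11 in liver, short of the threshold. Cdk6, an early G1 kinase, had 9.53 RPM at 250 in gut, against 4.63 RPM in controls, higher by 2.30 ± 0.20 (adjusted p = 0.000109). Cdk15 had 34.7 RPM at 250 in gut, against 13.4 RPM in controls, higher by 2.63 ± 0.10 (adjusted p = 1.96e-06). Cdk16, a kinase of the same branch as Cdk14, had 24.7 RPM at 250 in gill, against 10.9 RPM in controls, higher by 2.33 ± 0.28 (adjusted p = 0.000578), and its value in gut was -0.13 ± 0.10.

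Relative to the median gene, both Mediator kinases measured in liver passed the test, in opposite directions. Cdk8 had 22.7 RPM at 250 in liver, against 20.9 RPM in controls, higher than the median gene by 1.00 ± 0.18 (adjusted p = 0.00511), while the difference without that subtraction was 0.22 and did not pass (adjusted p = 0.327). Cdk19, its close relative, had 0 counts at 250 in liver, against 4.05 RPM in controls. Its fold change there was at or below -2.75 log2 units, computed with 3 counts per library (adjusted p of the fitted value = 0.000663). As for cdk14, the origin of these 0 counts was not tested. In gut cdk19 had about 3 reads in both 250 libraries together and 23 in both controls, a ratio of 0.123 with an exact 95% counting interval of 0.0236 to 0.406.

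Among cyclins 2 of 3 were lower in gut with none higher, 2 of 4 were lower and 2 higher in gill, and 2 of 6 were lower with none higher in liver. Ccne1, which starts DNA synthesis with Cdk2, fell by a like amount in each line. The falls were 0.87 ± 0.20 in gill, 0.98 ± 0.14 in liver and 1.07 ± 0.15 in gut (adjusted p = 0.0119, 0.00194 and 0.00103). The D cyclins, which answer growth signals, split. Ccnd2a had 4.62 RPM at 250 and 24.9 RPM in controls in gill, a fall of 1.28 ± 0.22 (adjusted p = 0.00355). In gut it had 167 RPM at 250 and 539 RPM in controls, a fall of 0.43 ± 0.08 (adjusted p = 0.00498). In liver its value was 0.24 ± 0.31. Ccnd1 was higher in gill by 1.13 ± 0.33 (adjusted p = 0.0331), with 3.71 RPM at 250 and 3.75 RPM in controls, so the level held while the median gene fell. Ccnd3, in the liver table only, had about 2 reads in both 250 libraries and 24 in both controls, a ratio of 0.0741 (exact counting interval 0.00849 to 0.298). Ccna1, a germ-line cyclin in mammals, passed as higher in gill on about 11 reads at 250 and 2 in controls, a ratio of 4.77 (exact counting interval 1.04 to 44.3). These read numbers too are estimates from the mean of each pair on the log2 scale, so the intervals are approximate. Such intervals and the floors above cover counting error only.

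Centromere genes fell in gut with 1 exception. There 5 of 6 were lower and cenpv was higher, in gill 4 of 7 were lower and cenpv was higher, and in liver 2 of 9 were lower. Cenpu, a subunit of the inner kinetochore, fell by 1.04 ± 0.11 in gill, 1.14 ± 0.15 in liver and 1.43 ± 0.20 in gut (adjusted p = 0.000264, 0.0014 and 0.00103). Cenph, of the same inner kinetochore, fell by 0.53 ± 0.08 in gill and 1.58 ± 0.29 in gut (adjusted p = 0.00245 and 0.0038), and its value in liver was -0.37 ± 0.16. Cenpv, known in human cells for a role in centromere organisation and cytokinesis, had 26.5 RPM in gill controls, then 25.1, 25.4, 32.2, 70.5 and 114 RPM. In gut it had 15.2 RPM in controls, then 18.4, 16.7, 16.4, 23.3 and 83.9 RPM. In both lines the rise was seen at 125 and was larger at 250. Cenpv was higher by 3.25 ± 0.11 in gill and 3.72 ± 0.14 in gut (adjusted p = 2.48e-06 and 1.96e-06), the largest rise among the gill members.

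All 5 mitotic kinesins measured in gut were lower, against 3 of 4 in gill and 2 of 5 in liver, with none higher. Kif15, a spindle motor, fell by 0.64 ± 0.10 in gill, 0.70 ± 0.14 in liver and 1.00 ± 0.24 in gut (adjusted p = 0.00188, 0.00984 and 0.011). Kif20ba, a copy of the cytokinesis motor gene kif20b, fell by 0.47 ± 0.13, 0.98 ± 0.25 and 1.69 ± 0.20 in the same order (adjusted p = 0.0307, 0.025 and 0.000428). The second copy, kif20bb, fell by 0.49 ± 0.11 in gill and 0.91 ± 0.20 in gut, and its value in liver was -0.36 ± 0.13. Reads of such near copies may have been divided between them, which was not tested.

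Of the anaphase genes 1 of 3 was lower in gut, 2 of 3 in gill and the 1 measured in liver, with none higher. Cdc26, a small subunit of the anaphase-promoting complex, fell in every line, by 0.56 ± 0.16 in gill, 0.72 ± 0.15 in liver and 1.29 ± 0.11 in gut (adjusted p = 0.0284, 0.0122 and 9.14e-05). Cdc16, of the same complex, fell by 0.45 ± 0.13 in gill, while cdc27 stood at -0.15 ± 0.09 in gut.

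In the condensin and cohesin family, 6 of 8 members were lower in gut, 2 of 8 in gill and 2 of 10 in liver. None was higher. Of all genes 25.9%, 19.6% and 13.3% were lower in the same order. Smc1a, a core cohesin subunit, fell in all 3 lines, by 0.61 ± 0.09 in gill, 0.44 ± 0.11 in liver and 0.91 ± 0.15 in gut (adjusted p = 0.00192, 0.0191 and 0.00246). Its meiotic relative smc1b had 2.33 RPM at 250 in gut, against 28.7 RPM in controls, a fall of 2.32 ± 0.16 (adjusted p = 2.79e-05). Smc6, of the complex that resolves joined DNA, fell by 1.08 ± 0.12 in gut and 0.45 ± 0.13 in liver. Ncaph, a condensin subunit, fell by 0.83 ± 0.16 in gut and 0.44 ± 0.09 in gill. Smc4, a condensin core subunit, stood at -0.08 ± 0.16 in liver and 0.05 ± 0.11 in gill.

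DNA repair genes gave 14 of 20 lower in gut, 6 of 17 in gill and 4 of 17 in liver, with 1 higher, in liver. Rad9a, part of the clamp that signals DNA damage, fell by 0.72 ± 0.14 in gill, 1.15 ± 0.20 in liver and 1.76 ± 0.18 in gut (adjusted p = 0.00591, 0.00511 and 0.000225). Its partner in that clamp, rad1, fell by 0.59 ± 0.11 in gill and 1.24 ± 0.15 in gut. Of the Fanconi anaemia genes, which clear crosslinks between DNA strands, fanci fell in all 3 lines, by 0.42 ± 0.13, 0.66 ± 0.11 and 1.10 ± 0.14. Fancc fell by 1.18 ± 0.18 in gill and fell by 1.88 ± 0.13 in gut, with -0.62 ± 0.25 in liver (adjusted p = 0.106). Fancb fell by 0.93 ± 0.17 in gill and 1.17 ± 0.18 in gut, and its value in liver was 0.00 ± 0.11, or -0.78 as deposited. Rad52, which anneals broken strands in yeast, fell by 1.53 ± 0.29 in gut and 0.89 ± 0.26 in liver. The 1 higher gene, rad23ab in liver, rested on about 12 reads at 250 and 1 in controls, estimated as for cdk19. The ratio was 10.7 (exact counting interval 1.58 to 456, approximate for the same reason).

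The genes set apart by role were those whose names come from partners or from the cytoskeleton. Cdk2ap2 and cdk5rap3, whose names refer to a kinase, fell in all 3 lines. In gill, liver and gut cdk2ap2 fell by 0.56 ± 0.11, 0.61 ± 0.15 and 0.97 ± 0.13. In the same order cdk5rap3 fell by 0.43 ± 0.14, 0.85 ± 0.11 and 1.10 ± 0.09. The largest rise of any member in gut was that of cdc42ep4b, an effector of the small GTPase Cdc42. It had 6.78 RPM in gut controls, then 7.28, 7.27, 10.8, 26.7 and 59.0 RPM, higher at 250 by 4.38 ± 0.33 (adjusted p = 4.5e-05). In gill it had 19.5 RPM at 250 and 5.16 RPM in controls, higher by 3.05 ± 0.32 (adjusted p = 0.000313). In liver it had 47.9 RPM at 250 and 77.9 RPM in controls, with a value of 0.17 ± 0.31. Cdc42ep5 was higher in gill by 2.39 ± 0.13, and kif1c, a transport motor, was higher in liver by 1.50 ± 0.12, with 211 RPM at 250 and 137 RPM in controls (adjusted p = 0.000194). Kif3a, a motor of cilia, fell by 0.63 ± 0.15 in liver and 0.76 ± 0.08 in gut, with -0.02 ± 0.10 in gill.

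**Figure D3:**
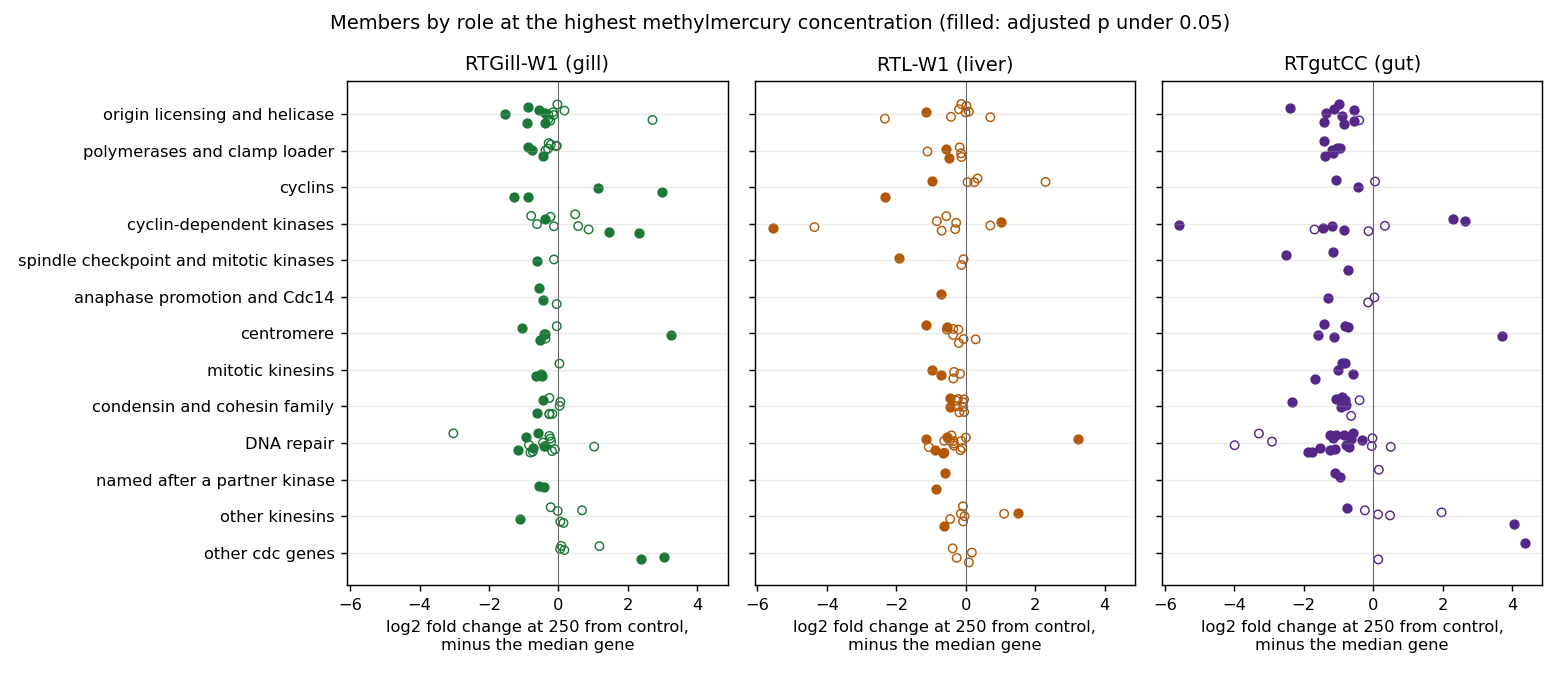
Log2 fold change at 250 against control minus the median gene (horizontal axes), 1 point per member, by role (rows) and cell line (panels), filled where the adjusted p is under 0.05. In gut the replication, spindle and mitotic kinesin rows lie below 0 and are nearly all filled, while the filled points above 0 there are cdk6, cdk15, cenpv, kif1aa and cdc42ep4b. The points of cdk14 in gut and cdk19 in liver rest on 0 counts at 250.

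Of the 60 members measured in all 3 lines, 14 were lower in every line and none was higher in every line, where 9.22% and 5.74% of the 12586 genes measured in the 3 lines were. The 14 were bub1, ccne1, cdc26, cdk2ap2, cdk5rap3, cenpu, fanci, kif15, kif20ba, orc5, pola2, pold2, rad9a and smc1a. A further 16 passed as lower in gut and in no other line, beside 9.79% of all these genes, and 8 passed nowhere, beside 32.1%. Cdk14 was the 1 member that passed in opposite directions, beside 2.13% of all these genes. The lowest fold change of the 3 lines was in gut for 51 of the 60 members, or 85%, and for 37.4% of all these genes.

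The difference between lines was tested directly at 250. Gut was lower than gill for 29 of 68 members and higher for 3, where 10.1% of all genes were lower in gut and 7.43% higher. The median difference, gut minus gill, was -0.64 over members and -0.09 over all genes. Gut was lower than liver for 22 of 71 members and higher for 3, where 10.8% of all genes were lower and 8.48% higher, with a median difference of -0.57 over members and 0.01 over all genes. Gill was lower than liver for 2 of 69 members and higher for 4, where 6.21% of all genes were lower in gill and 5.43% higher, with a median difference of 0.08 over members and 0.03 over all genes. Thus members fell further in gut than in gill, and further in gut than in liver, more often than all genes did. These are separate counts, and the members lower in gut against both lines were not counted. The gill and liver counts were near or below the shares of all genes, so they do not set the members apart.

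Among single members, bub1 fell further in gut than in gill, with a difference of -1.90 ± 0.24 (adjusted p = 0.000432), and so did cdc45, with -1.29 ± 0.17 (adjusted p = 0.000129). Between gut and liver the bub1 difference of -0.61 ± 0.50 did not pass (adjusted p = 0.433). Orc3 differed by -0.98 ± 0.14 between gut and gill and by -1.35 ± 0.15 between gut and liver. For orc5 the difference was -1.24 ± 0.22 from liver and -0.84 ± 0.20 from gill. Plk4, mcm9, rfc5 and pold2 fell further in gut than in liver, with differences of -1.11 ± 0.21, -1.22 ± 0.25, -1.06 ± 0.22 and -0.83 ± 0.17. Ccnd2a went the other way, with a smaller fall in gut than in gill and a difference of 0.85 ± 0.24. The gill minus liver differences that passed were those of cdc42ep4b, cdk19, cdk14 and kif3a, which were higher in gill, and of fancb and ccnd2a, which were lower in gill. That of cdk19 rests on 0 counts at 250 in liver.

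**Figure D4:**
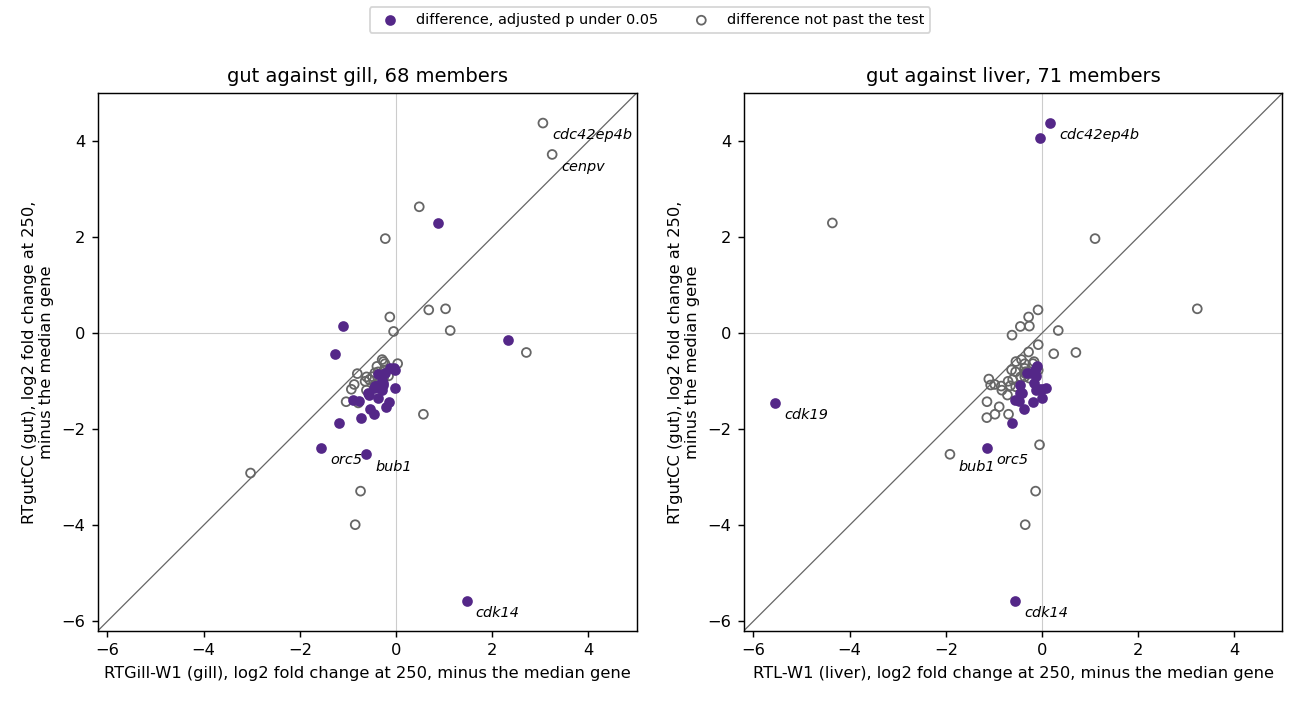
Log2 fold change at 250 minus the median gene in RTgutCC (vertical axes) against RTGill-W1 (left) and RTL-W1 (right), 1 point per member measured in both lines, with the line of equality. Filled points are differences between lines with an adjusted p under 0.05, and most lie below the line: 29 of 32 against gill and 22 of 25 against liver. The cdk14 point in gut and the cdk19 point in liver rest on 0 counts.

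Other lists of division genes outside the naming rule were read the same way. Of all genes, 25.9% were lower in gut at 250, 19.6% in gill and 13.3% in liver. Of replication genes such as prim1, gins1 and rpa2, 4 of 4 measured were lower in gut at 250, 8 of 12 in gill and 2 of 10 in liver, with none higher. Tk1, the thymidine kinase of DNA synthesis, had 44.5 RPM at 250 in gut, against 374 RPM in controls, and fell by 1.81 ± 0.24 there, 1.24 ± 0.11 in gill and 0.64 ± 0.10 in liver (adjusted p = 0.000774, 0.000162 and 0.0034). Of mitosis genes, 5 of 8 were lower in gut, 2 of 5 in gill and 1 of 10 in liver, with none higher. The 5 in gut were knl1, nek2, espl1, ect2 and spc25, with falls of 0.67 to 1.28.

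Checkpoint and arrest genes passed in both directions at 250, with 2 higher and 4 lower of 9 in gut, 2 and 7 of 14 in gill, and 4 and 2 of 15 in liver. Of all genes, 21.9% were higher and 25.9% lower in gut, 17% and 19.6% in gill, and 15.7% and 13.3% in liver. Counts near these shares do not set these genes apart. Cdkn1a, the p21 inhibitor of the division kinases, had 6.56 RPM at 250 in gut, against 71.4 RPM in controls. In liver it had 108 RPM at 250 and 68.2 RPM in controls. It fell by 2.17 ± 0.11 in gut and 0.37 ± 0.09 in gill and rose by 1.53 ± 0.22 in liver (adjusted p = 6.01e-06, 0.0197 and 0.00223). The difference between gut and liver was -3.70 ± 0.25 (adjusted p = 8.12e-06). Plk3, a stress-induced relative of the mitotic Plk kinases, was higher in all 3 lines, by 1.73 ± 0.24 in gill, 2.39 ± 0.30 in liver and 2.26 ± 0.10 in gut. The inhibitor cdkn1d, known from fish, was also higher in all 3, by 2.85 ± 0.10, 3.09 ± 0.35 and 1.81 ± 0.28.

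Markers of other cell types were listed beside these. The shares of all genes higher and lower at 250 given above apply to the marker counts too. At 125, 8.86% of all genes were higher in gut. Relative to the median gene, all 4 mesenchymal markers in the gut table were higher at 125 and at 250, by 1.09 to 2.04 at 250. Their summed level was 6468 RPM at 250 and 4231 RPM in controls. The smallest of these values was that of vim, with 7.15 RPM at 250 and 8.07 RPM in controls, so its level did not rise while the median gene fell. In gill 2 of 4 were lower and none higher, with 3182 RPM at 250 and 8733 RPM in controls, and in liver none of 3 passed at 250, with 25748 and 48598 RPM. Of hepatocyte markers, 2 of 2 were higher in gut, with a summed level of 79.2 RPM at 250 and 40.1 RPM in controls. In liver 1 was higher and 1 lower, with 40.5 and 164 RPM. These sums were mostly fga in gut and tf, the lower marker, in liver. The other marker, tfa, had about 1 read per library in gut controls and 45.5 at 250, with an SE of 1.66. In liver tfa had 0 counts in controls and about 4.47 reads per library at 250, so the size of its rise depends on the offset. No counting interval is given for tfa. Of epithelial markers 1 of 2 was higher in gill, and none passed in liver or gut. The gill marker was krt18b, with 0.563 RPM at 250 and 0.532 RPM in controls, so its low level held while the median gene fell. The 1 leukocyte marker in each table passed in no line, with at most 0.679 RPM at 250 or in controls. Whether these moves have a part in the members' fall was not tested.

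The authors also deposited benchmark doses, the concentration where a curve fitted to the whole series reaches a response level. That level is listed gene by gene. In the authors' deposited table for gut, 58 of 84 members had a benchmark dose, or 69.0%, against 28.9% of all measured genes. In the authors' deposited tables for gill and liver the shares were 20 of 92 (21.7%) and 13 of 89 (14.6%), against 21.5% and 15.2% of all genes. In the authors' deposited tables, 55 of the 58 values in gut belonged to falling curves, as did 18 of 20 in gill and 13 of 13 in liver. Over all genes with a value in the authors' deposited tables, 15.7% of curves rose in gut, 20.6% in gill and 19.6% in liver, so most curves of all genes fell too. The curve directions are the authors' and were not taken relative to the median gene.

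The median benchmark dose of gut members lay above the upper quartile of all genes with a value. It was 51.5 in the authors' deposited table, with quartiles of 30.4 and 69.7, against a median of 26.0 and quartiles of 13.2 and 48.4 over all genes. The medians of members in the authors' deposited tables were 18.1 in gill and 41.4 in liver, against 22.9 and 27.6 over all genes. In gut the lowest in the authors' deposited table were pold4 at 0.753, kif3a at 2.07 and cdk5rap3 at 4.29, and the highest was kif14 at 95.2. The value of pold4 had an upper bound of 2.45 and no lower bound in the authors' deposited table. There 57 of the 58 gut values were marked as passing all of the authors' checks, and that of pold4 was not. For methylmercury, no falling curve of a member had a benchmark dose above 125 in the authors' deposited tables. These curves were not taken relative to the median gene, unlike the fold changes at 125 above. In gill the lowest values in the authors' deposited table were cenpv at 4.69, orc1 at 6.23 and orc5 at 6.43.

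Bub1 was 1 of 6 members with a benchmark dose in every line, beside ccne1, cdk19, cenpu, orc5 and rad9a. The share of all genes with a value in every line is not given, so this count does not set the members apart. In the authors' deposited tables its value was 34.7 in gill (19.9 to 46.2), 38.6 in liver (32.1 to 48.5) and 42.9 in gut (22.9 to 58.5), and these intervals overlap. In the authors' deposited tables orc5 had 6.43 in gill (2.30 to 10.5), 36.3 in liver (21.0 to 48.0) and 40.4 in gut (22.6 to 53.8), so the gill interval lay below the others. Cdk14 had a benchmark dose in gut only, 90.4 (73.6 to 100.0) in the authors' deposited table.

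**Figure D5:**
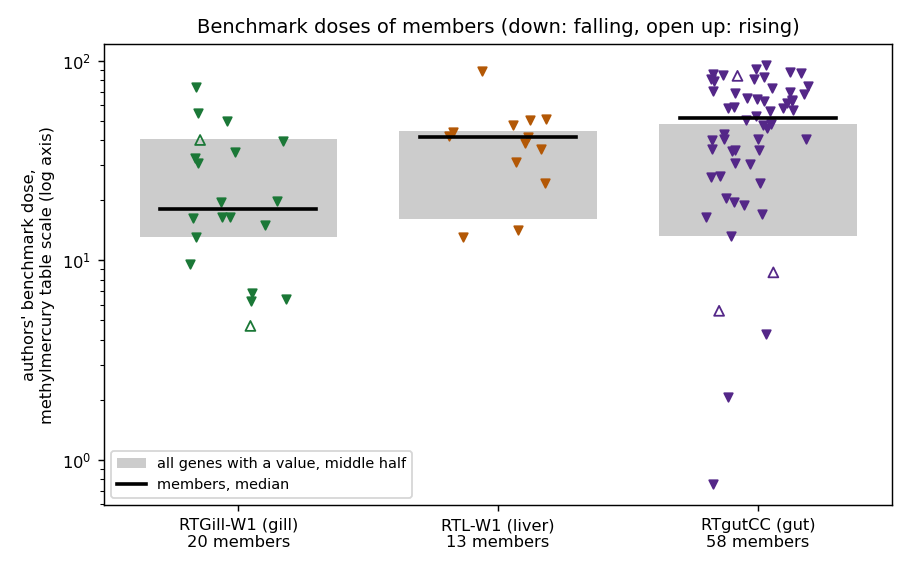
Benchmark doses of members from the authors' deposited tables (vertical axis, log scale, methylmercury on the table scale) by cell line, with falling curves as filled downward and rising curves as open upward triangles, the members' median as a bar and the interquartile range of all genes with a value in grey. The bar lies at 51.5 in RTgutCC, above the grey box, and inside it in RTGill-W1 and RTL-W1.

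Fluoxetine moved none of these genes past a test. By the authors' F-test and by a limma trend on log10 concentration, 0 of 52 gill members, 0 of 64 liver members and 0 of 50 gut members passed, and 0% of all genes did in any line. With 1 library per concentration, the F-test takes its spread from the 2 controls, named ctrl and H2O, and from limma's moderation. Its degrees of freedom were 2.43 in gill, 2.30 in liver and 2.27 in gut, so its 0 counts carry little information. At an unadjusted p under 0.05 the F-test gave 4 gill, 4 liver and 3 gut members, where 11.5%, 10.4% and 10.1% of all genes passed. The trend gave 2, 6 and 4 members, where 5.32%, 6.25% and 6.61% of all genes passed. The lowest adjusted p among members was 0.226 in gill, 0.320 in liver and 0.321 in gut for the F-test, and 0.927, 0.516 and 0.729 for the trend. At 1000 ppb the members' median stood at -0.09 in gill, 0.00 in liver and 0.01 in gut, and their interquartile range ran from -0.21 to 0.18, from -0.13 to 0.16 and from -0.09 to 0.12.

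Bub1 under fluoxetine ranged over the 9 concentrations from 54.3 to 78.5 RPM in gill, against 72.1 RPM in controls, and from 97.6 to 113 RPM in gut, against 110 RPM. It had no row in the liver table. Its slopes were -0.01 ± 0.06 and -0.01 ± 0.04 log2 units per 10-fold concentration (SE, 11 libraries per line, limma, adjusted p = 0.993 and 0.989). Cdk14 ranged from 22.3 to 32.8 RPM in gill, 15.0 to 20.7 RPM in liver and 26.0 to 38.3 RPM in gut, against 26.4, 20.5 and 29.9 RPM in controls. Its slopes were 0.00 ± 0.05, -0.10 ± 0.05 and 0.11 ± 0.05 in the same order (limma, adjusted p = 0.999, 0.812 and 0.737). Most treated libraries lay below the control for cdk14 in liver and for bub1 in gill, and no slope of either gene passed. With 1 library per concentration, no single concentration can be tested.

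Some of the lowest unadjusted p-values under fluoxetine came from single libraries at 0. Cdc7, the kinase that fires origins, had 0 counts at 4 ppb in liver, while its other 8 treated libraries held 19.6 to 31.7 RPM and the control 27.1 RPM. Fancf, of the Fanconi core complex, had 0 counts at 4 ppb in liver and at 8 and 200 ppb in gut, while its other libraries held 6.65 to 11.1 RPM and 11.7 to 17.3 RPM. Cdk15 had 0 counts at 500 ppb in gill, and cdk6 at 4 ppb in gut. In the methylmercury tables the same kind of gene had wide errors, with an SE above 1 log2 unit for 8 gill members, 4 liver members and 6 gut members. Among these were fancf in gill and gut, fancm in gut and cdk6 and orc6 in liver. Only kif1aa in gut among them passed the test, on about 33 reads at 250 and 4 in controls, estimated as for cdk19. The authors' deposited fluoxetine tables held 2 benchmark doses of members, smc1b in liver at 142 ppb and kif1aa in gut at 9.93 ppb, both with falling curves. The value of kif1aa had no lower bound and was not marked as passing all of the authors' checks. That of smc1b rested on a level near the floor, with about 3.2 counts in controls and 3 at 1000 ppb (0.69 and 0.53 RPM). Of all measured genes, 2.41% had a benchmark dose in liver and 2.19% in gut.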

How the data were processed

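Reads were filtered with fastp and quantified with Salmon, per the submitters' processing notes, with versions and genome build not given in the sources used here. The deposited fold-change tables hold log2 fold changes and mean expression as log2 values, an F score, and p-values with their adjusted p-values. The deposited benchmark dose tables hold doses and bounds on the concentration scale, a residual SD as a score and a lack-of-fit p-value. Gene symbols came from RefSeq (USDA_OmykA_1.1) by gene identifier. Group means, limma's moderated variance and SEs were recovered from the deposited statistics. Differences at 1 concentration, between lines (Welch-Satterthwaite degrees of freedom) and between 250 and 125 were tested two-sided with that variance and adjusted by Benjamini-Hochberg over all genes. Fluoxetine libraries were recovered and fitted with limma 3.58.1 in R 4.3.3, centred on each library's median gene. Read numbers were recovered as estimates with an offset of 0.5, so no count model was fitted. For methylmercury they come from the mean of each pair on the log2 scale and are not read totals. The tests were tried on simulated normal values without counts or a fall of the median gene, so that trial does not cover these features of the data.

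Members and lists were chosen with earlier results of these data known, and the role for genes named after a partner kinase was added to the others. The naming rule took bub1, cdk14, up to 3 members per role that passed at 250 in at least 2 lines, the 3 highest and 3 lowest passing members per line, up to 5 members per line for fluoxetine, the 3 lowest benchmark doses per table and up to 3 members per pair of lines. Members named beyond it (bub1bb, plk4, mcm5, mcm7, mcm9, mcm10, cdc6, rfc2, rfc5, cdk2, cdk16, ccnd1, kif14, cdc16, cdc27, smc4, rad1, fanci, fancm and cdc42ep5) were chosen after their values were seen.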

Additional observations from a re-analysis of the deposited data

Results flagged for a closer look

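The difference between lines at 250 was tested for each member measured in both lines. Those with the smallest adjusted p for each pair, with bub1 and cdk14 where they passed, are listed here. Values are differences in log2 units, each relative to the median gene. The bub1 differences of -0.61 for gut minus liver and 1.29 for gill minus liver did not pass. Gut minus gill gave -7.05 for cdk14, -1.29 for cdc45, -0.98 for orc3 and -1.90 for bub1. Gut minus liver gave -5.02 for cdk14, 4.20 for cdc42ep4b and -1.35 for orc3. Gill minus liver gave 2.88 for cdc42ep4b, 4.77 for cdk19, -0.93 for fancb and 2.03 for cdk14. The values of cdk14 in gut and cdk19 in liver rest on 0 counts at 250 and depend on the offset of 0.5, so their sizes are not measured differences.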

How the results depend on the processing

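No paired analysis was possible because the deposited methylmercury values hold only the mean of each pair of libraries, so the replicate number in the titles could not be used, and leaving out each replicate was not run for the same reason. After subtraction of the median gene the F-test called 28 gill and 12 liver members. At 250 without centring, 73 members were lower in gill and 69 in liver, and 1 was higher in liver. Centred on the genes above the median of mean expression, 11 were higher and 19 lower in gill, and 8 higher in gut. At an adjusted p under 0.01, 19 were lower in gill and 10 in liver. No share of all genes is given for these counts at 250 or for the counts between lines below. The counts without centring include the fall of the median gene. Against 125 in place of the control, an alternative added after the values were seen, 3 were higher and 18 lower in gill, and 1 higher and 4 lower in liver. Between lines at an adjusted p under 0.01, gut was higher than gill for 1 member and lower for 12, lower than liver for 12, and gill was higher than liver for 2 and lower for 0. Without centring, gut was lower than liver for 34 members and gill lower than liver for 5. Without centring fancb in liver stood at -0.78 and orc6 in gill at -0.72, against 0.00 and 0.17 with it, and neither passed with it. The cause of these moves was not tested. Of 119 values of named genes, 97 kept their direction and side of the threshold without centring and 105 with centring on the more expressed genes, and all 107 that remained after low expression was left out did so. Without centring 4 others were classed as weaker, 16 as stronger and 2 as reversed. With centring on the more expressed genes 12 were classed as weaker, 2 as stronger and 0 as reversed. The fluoxetine counts were 0 under every alternative run. A lack-of-fit limit of 0.1 could change no benchmark dose count, because no listed gene lay below it. The lowest lack-of-fit p of all listed genes was 0.1002 in gill, 0.1003 in liver and 0.1005 in gut for methylmercury. For fluoxetine it was 0.2001, 0.2002 and 0.2001 in the same order. With 2 libraries per group and 1 value per pair, the spread within a pair is known only through the moderated variance. Low-count members are limited by the approximate counting intervals given with them.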
